A study of Rattus norvegicus with 6 samples.

Results

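The 32 genes described here mark the blood vessels and connective tissue of a nerve rather than its glia, and were chosen by name. They comprise 14 endothelial markers, 7 mural markers (pericytes and smooth muscle) and 11 fibroblast markers, out of 29468 gene symbols in the tables. All 32 were found, 31 by their symbol and Clec3b through its RefSeq gene number, under which the tables call it LOC100912012. The levels come from RNA sequencing of 3 preparations of Schwann cell precursors (SCPs) and 3 of repair Schwann cells (RSCs), which the study compared to learn how graft cells from a developing and from an injured nerve differ. SCPs came from the sciatic nerves and brachial plexus of untreated LEWIS rat embryos on embryonic day 14. RSCs came from the distal segments of sciatic nerves of LEWIS rats aged 10 weeks, taken 1 week after the nerve was cut. All 6 samples are labelled wild type, while the paper states that its grafted cells came from transgenic LEWIS rats that express a red fluorescent protein. Whether the sequenced cells did too is not stated apart. The labels do not say whether preparations came from separate animals, so p-values measure the spread between preparations, which may be partly technical. According to the methods, nerves were dissociated with enzymes and cells that adhered early to plastic, such as fibroblasts and macrophages, were depleted, while no marker was used for sorting. Age, injury and nerves sampled all differ between the groups and cannot be told apart.

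A nerve carries its own vessels, in which endothelial cells line the lumen and are joined by tight junctions that form the blood-nerve barrier. Mural cells wrap the endothelium, as contractile smooth muscle on arterioles and as pericytes on capillaries. Fibroblasts lie in the endoneurium between axons and in the outer epineurium, and flattened perineurial cells ensheath each fascicle. In a freshly formed nerve these layers are still immature, and the limb mesenchyme around it supplies connective tissue cells.

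Levels are FPKM (fragments mapped to a transcript, scaled to its length and to the total of mapped fragments). Unless stated otherwise they are sums over the reference transcripts of a gene. Cufflinks also assembled transcripts without a gene name in each sample, and the text says where these were added. Changes are log2 fold changes of FPKM + 1 (RSC minus SCP) from limma, and a gene was called at an unadjusted p under 0.01, a threshold of the study. Adjusted p-values cover all 13003 genes tested.

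The libraries held more than Schwann cells. Sox10, a transcription factor of the Schwann lineage, was at 179, 175 and 181 FPKM in SCPs 1 to 3 and at 149, 143 and 143 in RSCs 1 to 3. The summed level of 10 Schwann lineage markers ran from 457 to 523 FPKM in SCPs and from 2148 to 2716 in RSCs. In RSCs 10 leukocyte markers summed to 1950 to 2304 FPKM against 5.43 to 23.8 in SCPs, and Ptprc, the pan-leukocyte marker CD45, was at 0.19, 0.76 and 0.61 FPKM in SCPs and 10.8, 11.9 and 7.34 in RSCs. SCPs carried more skeletal muscle RNA (9 markers, 63.9, 113 and 250 FPKM against 10.6 to 19.0), limb mesenchyme and cartilage RNA (8 markers, 120 to 147 against 12.7 to 23.8) and erythroid RNA (6 markers, 37.8 to 132 against 0.08 to 1.56). Neuronal markers (6 genes) summed to 28.8 to 51.6 FPKM in SCPs and 18.5 to 24.3 in RSCs. Among the genes tested, the calls were 5 higher in RSCs and 1 in SCPs of 9 Schwann markers, 7 and 0 of 8 leukocyte markers, 0 and 7 of 9 muscle markers, 0 and 3 of 5 limb markers, 0 and 5 of 5 erythroid markers, and 0 and 2 of 5 neuronal markers. Of all 13003 genes tested, 18.1% were called higher in RSCs and 22.4% in SCPs. Genes that averaged under 1 FPKM were not tested. Only through SCPs did 6 muscle, 1 limb, 5 erythroid and 4 neuronal markers pass this filter, and only through RSCs 4 leukocyte markers. The direction that a call of these genes could take was thus largely set by the filter. The part of the cell types listed here in the changes described below was not tested.

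Of the 32 genes, 30 had the mean of at least 1 FPKM that the test required; Rgs5 and Tcf21 did not. Of the tested genes 12 were called higher in RSCs and 2 in SCPs, where the share over all 13003 genes was 18.1% and 22.4%. At over 4-fold the counts were 8 and 1, against 7.81% and 3.78% of all genes. The 3 kinds of marker gave different counts: endothelial genes were divided, no mural gene was called on its reference transcripts, and 9 of 10 tested fibroblast genes were called. The median log2 fold change was 0.76 for endothelial, 0.15 for mural and 2.49 for fibroblast markers, with -0.17 over all genes tested. These are bulk samples, in which more cells of a type and more RNA per cell cannot be told apart.

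**Figure D1:**
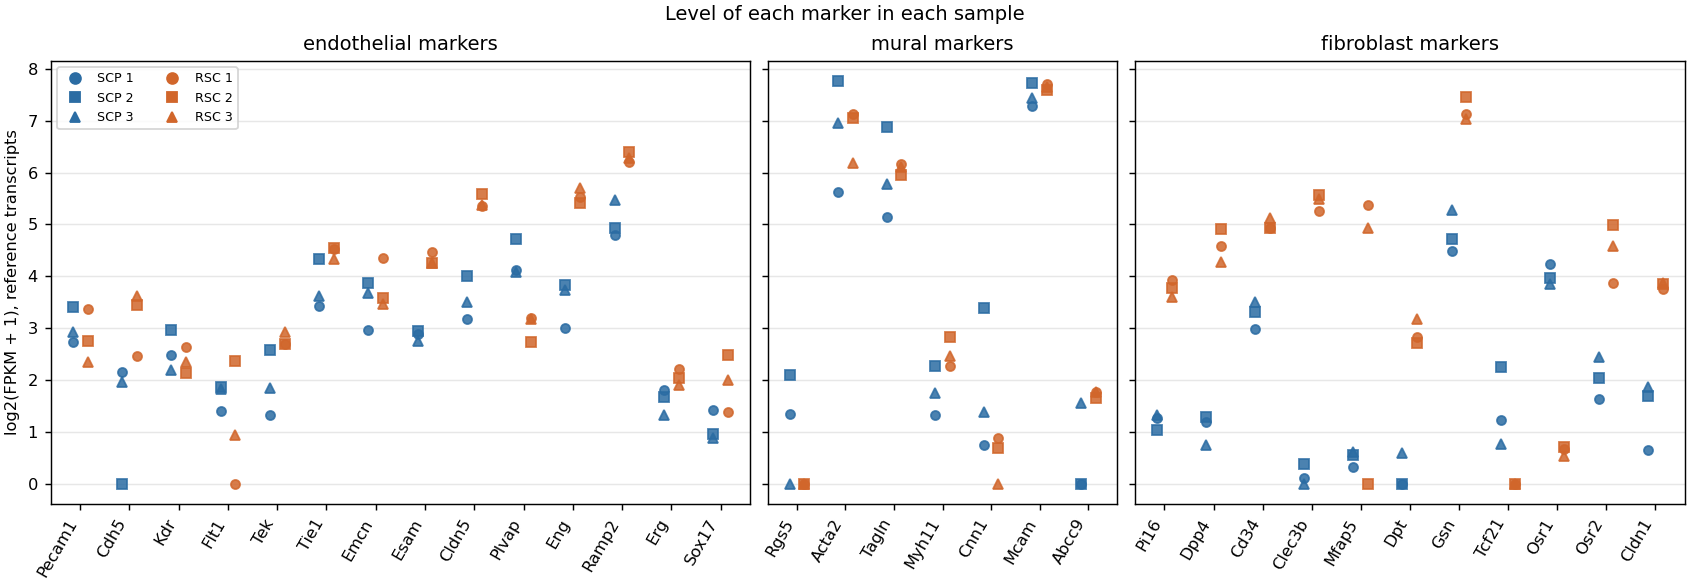
Level of the 32 markers in each sample, as log2(FPKM + 1) of the reference transcripts, with SCP 1 to 3 in blue and RSC 1 to 3 in orange. Most fibroblast markers lie higher in the 3 RSC samples, while Osr1 lies lower in them, and the mural markers Acta2 and Tagln spread more widely among SCPs than among RSCs.

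Endothelial markers summed to 102, 150 and 132 FPKM in SCPs and to 259, 266 and 257 FPKM in RSCs, so that the lowest RSC sample was above the highest SCP sample. All 14 passed the filter. RSCs had higher levels of 4 genes (Eng, Cldn5, Esam and Ramp2), SCPs of 1 (Plvap), and 9 were not called. By comparison, 18.1% of all 13003 genes tested were called higher in RSCs and 22.4% in SCPs. The total of endothelial genes called was thus near the background.

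Among the genes of endothelial junctions and permeability, a pair that serves opposite ends moved in opposite directions. Cldn5 (chr11:86356292-86357718 on rn6), the claudin that seals the tight junctions of barrier endothelium, was at 7.98, 15.2 and 10.3 FPKM in SCPs and at 40.0, 47.1 and 40.5 FPKM in RSCs. It rose by a log2 fold change of 1.88 (SE 0.23, adjusted p = 0.00128, limma). Plvap (chr16:19906354-19918668), which forms the diaphragms of fenestrated and leaky endothelium, was at 16.4, 25.4 and 16.0 FPKM in SCPs and at 8.12, 5.66 and 8.09 FPKM in RSCs. It was lower in RSCs by a log2 fold change of -1.27 (SE 0.24, adjusted p = 0.00638, limma), a call that was lost with the replicate number as a block (unadjusted p = 0.0117). The groups did not overlap for either gene. Within each sample the ratio of Cldn5 to Plvap in FPKM was 0.486, 0.597 and 0.647 in SCPs and 4.93, 8.32 and 5.003 in RSCs, so Plvap was the more abundant of the pair in every SCP sample and Cldn5 in every RSC sample. Esam, an adhesion molecule of endothelial junctions, was at 6.42, 6.66 and 5.75 FPKM in SCPs and 21.0, 18.1 and 18.1 FPKM in RSCs (log2 fold change 1.46, SE 0.13, adjusted p = 4.12e-04, limma).

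**Figure D2:**
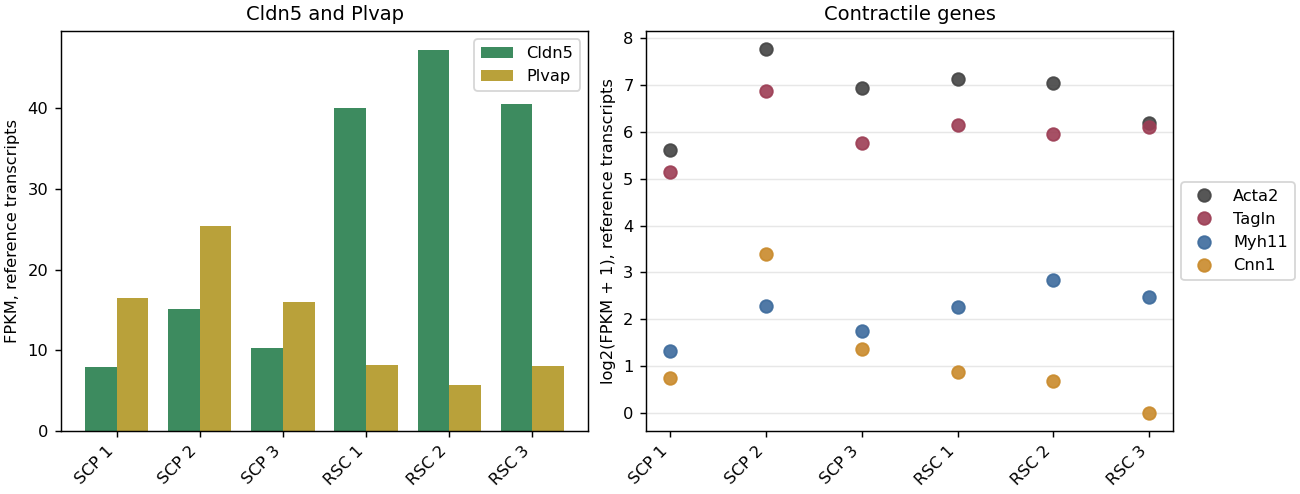
Left, FPKM of Cldn5 (green bars) and Plvap (ochre bars) in each of the 6 samples, on an axis from 0. Right, log2(FPKM + 1) of 4 contractile genes in the same samples; SCP 2 is the highest SCP sample for each of them, and Cnn1 reaches 9.48 FPKM there against at most 1.59 elsewhere.

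Among receptors, Eng (endoglin, the TGF-beta co-receptor of angiogenic endothelium) was at 7.05, 13.2 and 12.4 FPKM in SCPs and at 45.3, 41.7 and 51.2 FPKM in RSCs. Its log2 fold change of 2.02 (SE 0.24, adjusted p = 0.00117, limma) was the only endothelial one over 4-fold, and it fell just under that size when assembled transcripts were added (1.85). Ramp2, which with Calcrl makes the adrenomedullin receptor, was at 26.9, 29.4 and 43.5 FPKM in SCPs and at 72.9, 83.5 and 77.1 FPKM in RSCs (log2 fold change 1.23, SE 0.19, adjusted p = 0.00318, limma). With assembled transcripts SCP 2 rose to 59.3 FPKM and the Ramp2 call was lost (log2 fold change 0.90, unadjusted p = 0.0131).

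The angiopoietin receptors were not called. Tek (Tie2) was at 1.51, 4.98 and 2.57 FPKM in SCPs and 5.44, 5.49 and 6.56 in RSCs (log2 fold change 0.85, SE 0.34), and its partner Tie1 was at 9.78, 19.0 and 11.4 FPKM and 22.2, 22.4 and 19.0 (0.67, SE 0.25). SCP 2 was the highest SCP sample for both, and without it both were called higher in RSCs, at log2 fold changes of 1.18 and 0.94. The VEGF receptor Kdr gave 4.60, 6.85 and 3.60 FPKM in SCPs and 5.21, 3.36 and 4.06 in RSCs, and the groups overlapped.

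General markers of endothelial identity showed no called change. Pecam1 (CD31) was at 5.60, 9.65 and 6.55 FPKM in SCPs and 9.37, 5.77 and 4.08 in RSCs (log2 fold change -0.19, SE 0.33). Assembled transcripts held 37.5% to 57.0% of the Pecam1 level in SCPs and 50.1% to 75.4% in RSCs, and with them the values were 8.96, 22.2 and 15.2 FPKM against 18.8, 14.9 and 16.5 FPKM, still overlapping. Emcn (endomucin) was at 6.80, 13.7 and 11.8 FPKM in SCPs and 19.4, 11.0 and 10.1 in RSCs. The ETS factor Erg was low in both, at 2.52, 2.18 and 1.51 FPKM against 3.63, 3.08 and 2.74.

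In 3 endothelial genes the picture depended on the transcripts counted. Cdh5 (VE-cadherin, the adherens junction protein of endothelium, chr19:1025122-1074333) was listed at 3.46, 0 and 2.89 FPKM in SCPs and 4.53, 9.86 and 11.3 FPKM in RSCs on its reference transcript, with 5 of the 6 estimates marked as low data by Cufflinks. With assembled transcripts Cdh5 was at 13.9, 20.5 and 14.4 FPKM in SCPs and 17.6, 17.1 and 11.3 FPKM in RSCs, and the log2 fold change went from 1.80 (SE 0.66) to -0.08 (SE 0.22), called in neither. Flt1 (VEGF receptor 1, chr12:9033998-9203771) was at 1.65, 2.66 and 2.54 FPKM in SCPs and was listed at 0, 4.12 and 0.91 FPKM in RSCs. With assembled transcripts the RSC values became 9.21, 8.26 and 7.37 FPKM and the SCP values stayed as they were, which turned the log2 fold change from -0.60 (SE 0.61, not called) to 1.51 (SE 0.18, adjusted p = 3.88e-04, limma). A short unnamed transcript inside Flt1, of 176 to 202 bases and at 83.9 to 154 FPKM over the 6 samples, belonged to another Cufflinks locus and was not added. Sox17, a transcription factor of arterial endothelium, went from 1.69, 0.95 and 0.84 FPKM against 1.61, 4.57 and 2.99 FPKM to 1.69, 3.71 and 2.80 FPKM against 10.4, 8.84 and 6.42 FPKM, and its log2 fold change from 0.86 (SE 0.35, not called) to 1.37 (SE 0.26, adjusted p = 0.00343, limma). In all, 5 endothelial genes were then called higher in RSCs and 1 in SCPs, when 23.2% and 34.2% of all 14019 genes tested in that fit were called. Of those 5, Flt1 and Sox17 were new and Ramp2 had dropped out.

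Of 28 further endothelial genes, 24 were tested, 9 were called higher in RSCs and 1 in SCPs. Over all 13003 genes tested the shares were 18.1% and 22.4%. Selp (P-selectin, the leukocyte adhesion receptor of activated venules) was listed at 0 in all 3 SCP samples and at 25.9, 15.6 and 13.02 FPKM in RSCs. Abcb1a, a drug efflux pump of barrier endothelium, rose from a mean of 0.11 to 6.91 FPKM (log2 fold change 2.82, SE 0.22, adjusted p = 2.38e-04, limma), and Lyve1, found on lymphatic endothelium and on some macrophages, from 5.83 to 42.6 FPKM (2.85, SE 0.47, adjusted p = 0.00425). Tal1, a factor of embryonic blood and endothelium, was at a mean of 3.51 FPKM in SCPs and 0.90 in RSCs (log2 fold change -1.25, SE 0.21, adjusted p = 0.00459, limma). Of the 24 tested genes, 5 passed the filter only through RSCs, Selp and Abcb1a among them, and 3 only through SCPs, Tal1 among them. For these 3 named genes that was the group in which they were high. Erythroid and leukocyte markers moved in the same directions as Tal1 and Lyve1 respectively.

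Mural markers summed to 241, 562 and 354 FPKM in SCPs and to 424, 392 and 348 FPKM in RSCs. The groups overlapped, and SCPs held both the lowest and the highest sample. On the reference transcripts none of the 6 tested genes was called, at an unadjusted p under 0.01, in either direction, and none had an unadjusted p under 0.05 apart from Abcc9 (0.0428, limma). Among all genes tested, 18.1% were called higher in RSCs and 22.4% in SCPs. Abcc9 passed the filter only through RSCs, and Cnn1 only through SCPs.

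The contractile genes Acta2, Tagln and Cnn1 varied widely among SCP samples. Acta2 (smooth muscle actin, chr1:252537614-252550394 on rn6) was at 48.0, 216 and 122.5 FPKM in SCPs and 138, 131 and 71.9 FPKM in RSCs, a log2 fold change of 0.01 (SE 0.57). With an assembled transcript included, RSC 3 was at 166 FPKM and the log2 fold change was 0.41 (SE 0.50), still not called. Tagln (SM22, an actin-binding protein) was at 34.3, 117 and 53.7 FPKM in SCPs and at 70.4, 61.1 and 68.3 FPKM in RSCs (0.15, SE 0.43). Cnn1 (calponin, which regulates smooth muscle contraction) was at 0.69, 9.48 and 1.59 FPKM in SCPs and listed at 0.83, 0.61 and 0 FPKM in RSCs (-1.32, SE 0.72). SCP 2 was the highest SCP sample for all 3, and for Rgs5, Myh11 and Mcam as well. It was also the highest SCP sample for every endothelial marker except Cdh5, Ramp2, Erg and Sox17. On the reference transcripts, the highest SCP sample exceeded the lowest by 4.50-fold for Acta2, 3.40-fold for Tagln and 13.8-fold for Cnn1. Among RSCs the factor was 1.92 for Acta2, where RSC 3 was the lowest, and 1.15 for Tagln. The summed level of the skeletal muscle markers was highest in SCP 3.

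Acta2 and other contractile genes are textbook targets of serum response factor, which binds the CArG box. The 250 bases before the Acta2 start are shown as background. Any part of serum response factor in the levels described here was not tested. The sequence is from RefSeq (build GRCr8, which differs from the rn6 build of the tables), chr1:241172504-241172753, minus strand, and capitals mark 2 matches to the CArG box in which 1 of the 6 core bases was left free.

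Acta2: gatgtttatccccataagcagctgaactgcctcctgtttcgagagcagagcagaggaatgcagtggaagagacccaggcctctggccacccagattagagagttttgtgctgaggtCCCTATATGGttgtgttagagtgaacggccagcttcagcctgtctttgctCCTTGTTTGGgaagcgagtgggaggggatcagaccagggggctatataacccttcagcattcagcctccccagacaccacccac

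The matches, CCCTATATGG and CCTTGTTTGG, begin 134 and 84 bases before the start. The motif, 2 C, 6 bases of A or T and 2 G, has the same form on both strands, so that 1 search covered both. Of 33469 rat promoters of this length 8.08% held such a match and 1.5% an exact one. Promoters were at hand for 21 of the 32 genes, 4 of them mural. Rgs5, Cnn1 and Abcc9 had no match, and among the endothelial and fibroblast genes Kdr and Tie1 had 1 each.

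Mcam (CD146, an adhesion molecule of mural and endothelial cells that some embryonic cells also carry) was at 155, 212 and 172 FPKM in SCPs and 208, 191 and 201 FPKM in RSCs. Its log2 fold change was 0.16 (SE 0.12). Myh11, the myosin heavy chain of mature smooth muscle, was at 1.51, 3.84 and 2.35 FPKM in SCPs and 3.81, 6.10 and 4.54 FPKM in RSCs (0.74, SE 0.31). With assembled transcripts it was at 1.51, 6.63 and 2.35 FPKM against 9.49, 9.71 and 9.81 FPKM and lay at the threshold (log2 fold change 1.41, SE 0.39, unadjusted p = 0.009996, adjusted p = 0.0174, limma), a call lost in 5 of 6 fits that left out 1 sample.

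The pericyte gene Rgs5, a regulator of G-protein signaling, gave the widest gap between the reference and the assembled transcripts. Its reference transcript (chr13:87966820-88002831, 546 bases long) was listed at 1.52, 3.30 and 0 FPKM in SCPs and at 0 in all 3 RSC samples, with every estimate marked as low data, and Rgs5 was therefore not tested. At the same locus Cufflinks assembled a transcript of 4139, 4126 and 4147 bases in RSCs 1 to 3, at 98.4, 79.9 and 75.3 FPKM. In SCPs the assembled transcripts were of 1389 to 1514 bases, at 3.46, 6.69 and 5.28 FPKM. With the reference transcript added, Rgs5 was at 4.98, 9.99 and 5.28 FPKM in SCPs and at 98.4, 79.9 and 75.3 FPKM in RSCs, a log2 fold change of 3.51 (SE 0.25, adjusted p = 4.70e-05, limma). The reference transcript alone was thus listed above 0 in 2 SCP samples and in no RSC sample. With these transcripts the summed mural level became 245, 574 and 360 FPKM in SCPs and 528, 476 and 523 FPKM in RSCs.

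**Figure D3:**
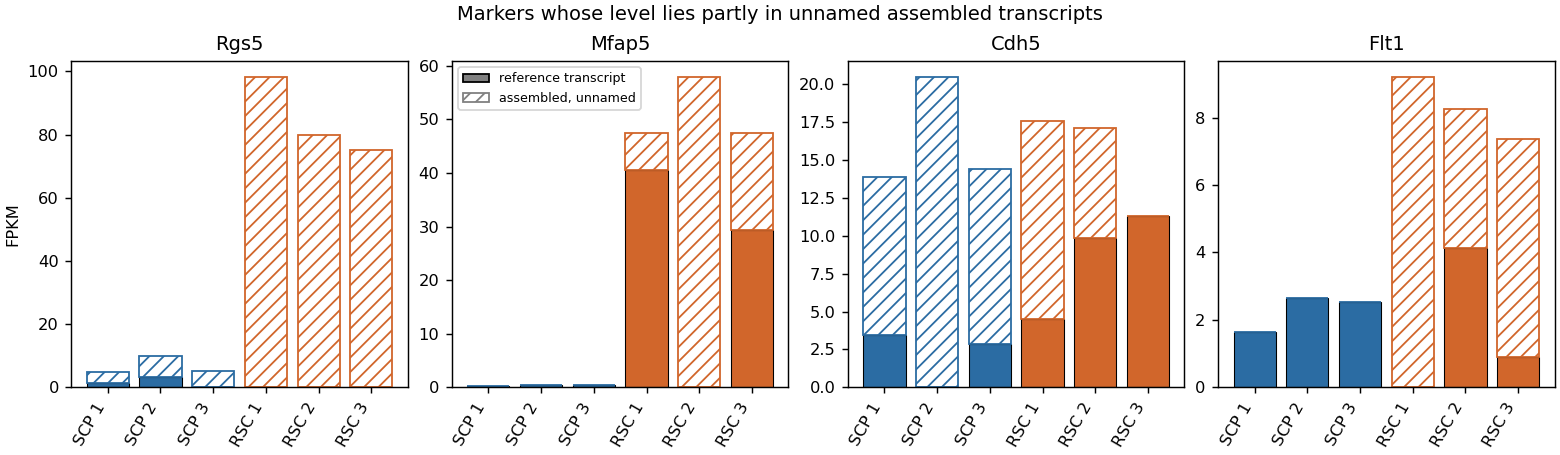
FPKM in each sample of 4 markers, split into the reference transcript (filled) and unnamed assembled transcripts of the same locus (hatched, stacked above), with SCPs in blue and RSCs in orange. Rgs5 in RSCs and Mfap5 in RSC 2 lie entirely in assembled transcripts, and the RSC samples of Cdh5 lie above all SCP samples in the reference transcript but not in the stacked total.

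Abcc9 (SUR2, the potassium channel subunit of pericytes and smooth muscle) was listed at 0, 0 and 1.95 FPKM in SCPs and at 2.41, 2.16 and 2.42 FPKM in RSCs (log2 fold change 1.22, SE 0.47, adjusted p = 0.0816, limma). It was called higher in RSCs only when SCP 3 was left out (1.74), which left only reference values of 0 in SCPs. SCPs 1 and 2 held 0.71 and 2.76 FPKM in assembled transcripts, and with these the log2 fold change was 0.32 (SE 0.30).

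Of 20 further mural genes, 16 were tested, and 3 were called higher in RSCs and 1 in SCPs. Over all genes tested the shares were 18.1% and 22.4%, so that the count higher in RSCs lay near the background. The pericyte gene Higd1b was listed at 0 in all 3 SCP samples and at 10.4, 11.7 and 11.5 FPKM in RSCs, and so passed the filter only through RSCs. Cspg4 (the NG2 proteoglycan of pericytes, also made by some glia) rose from a mean of 3.78 to 20.5 FPKM (log2 fold change 2.22, SE 0.25, adjusted p = 0.00101, limma), and the intermediate filament Des from 9.36 to 24.7 FPKM (1.37, SE 0.27, adjusted p = 0.00861). Myl9, a regulatory myosin light chain, was lower in RSCs, at a mean of 82.8 against 205 FPKM (-1.29, SE 0.10, adjusted p = 2.69e-04, limma). With assembled transcripts 4 were called higher in RSCs and 5 in SCPs, when 23.2% and 34.2% of all genes were, so that both counts lay near the background. The 4 were Higd1b, Cspg4, Des and Ano1, and the 5 were Myl9, Pdgfrb, Notch3, Heyl and Cald1, of which Ano1 and all of the 5 but Myl9 were named after their values were seen. Notch3, the Notch receptor of mural cells, was then at 49.2, 51.4 and 42.3 FPKM in SCPs and 18.6, 15.4 and 14.8 FPKM in RSCs, and Pdgfrb, the receptor through which pericytes are recruited, at 19.8, 24.7 and 19.9 against 14.9, 14.6 and 12.01 FPKM.

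Fibroblast markers summed to 53.4, 61.4 and 72.5 FPKM in SCPs and to 317, 343 and 313 FPKM in RSCs. Of 10 tested genes, 8 were called higher in RSCs, 7 of them over 4-fold, 1 was higher in SCPs and 1 (Mfap5) was not called. Among all 13003 genes tested, 18.1% were called higher in RSCs and 22.4% in SCPs, and 7.81% and 3.78% at over 4-fold. In SCPs the mean of 3 of the 10 markers (Clec3b, Mfap5 and Dpt), and in RSCs that of 1 (Osr1), was under the 1 FPKM of the filter. These passed it only through the group in which they were high.

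**Figure D4:**
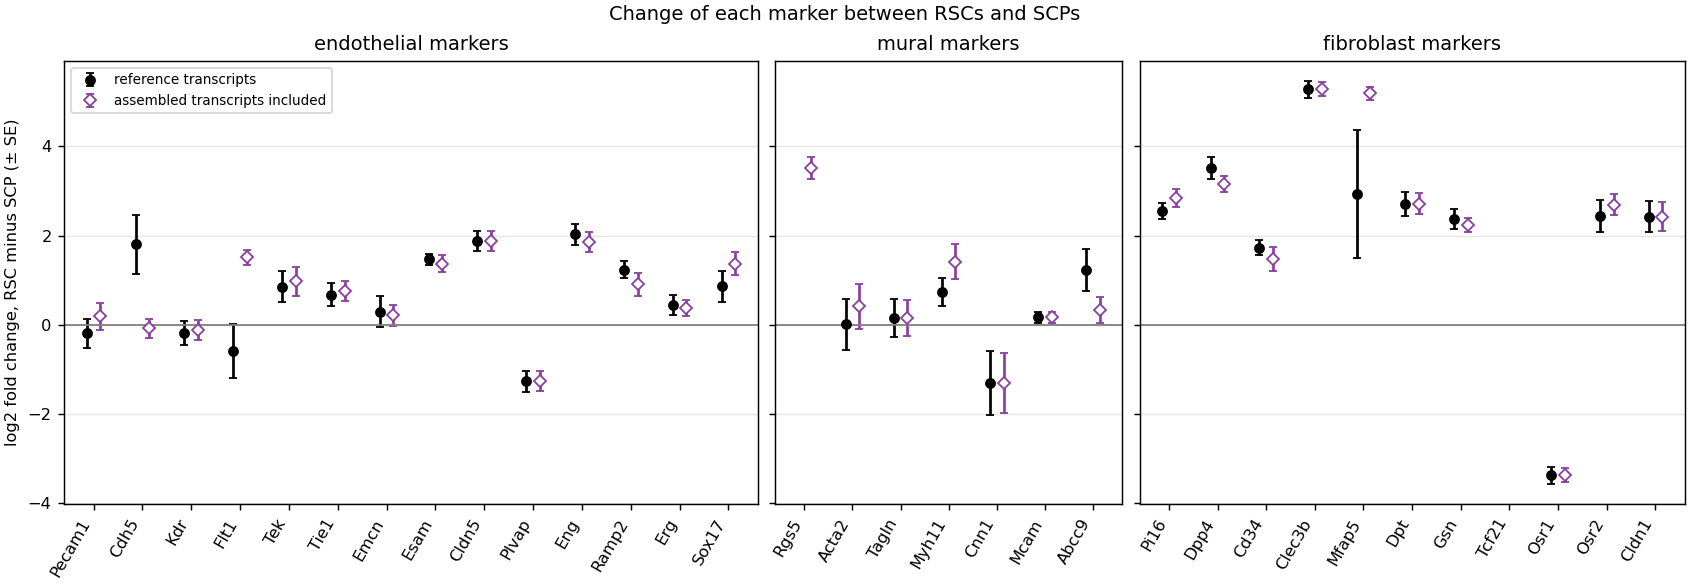
Log2 fold change of FPKM + 1 (RSC minus SCP) of each marker with its standard error, from limma, on the reference transcripts (black circles) and with assembled transcripts included (purple diamonds). Rgs5 has no black circle and Tcf21 no symbol because they were not tested; the symbols lie far apart for Cdh5, Flt1 and Mfap5, and every fibroblast marker drawn except Osr1 lies above 0.

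Markers of the Pi16-positive adventitial fibroblast, a cell of the vessel wall and outer nerve sheath, were low in SCPs. Pi16, a secreted peptidase inhibitor, was at 1.41, 1.05 and 1.51 FPKM in SCPs and 14.1, 12.6 and 11.2 FPKM in RSCs (log2 fold change 2.55, SE 0.18, adjusted p = 1.88e-04, limma). Dpp4 (CD26, a surface peptidase) was at 1.27, 1.44 and 0.68 FPKM in SCPs and 23.1, 29.1 and 18.4 FPKM in RSCs (3.52, SE 0.25, adjusted p = 1.65e-04, limma). Every RSC sample exceeded every SCP sample for both genes. Cd34, carried by both fibroblasts and endothelium, was at 6.90, 8.94 and 10.3 FPKM in SCPs and 29.4, 29.5 and 34.0 FPKM in RSCs, and its log2 fold change of 1.73 (SE 0.17, adjusted p = 5.30e-04, limma) was the smallest of the 8.

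Genes of the extracellular matrix included the largest change. Clec3b (tetranectin, a secreted plasminogen-binding protein, chr8:132241013-132248066) was listed at 0.08, 0.30 and 0 FPKM in SCPs and at 37.5, 46.7 and 44.2 FPKM in RSCs. Its log2 fold change of 5.28 (SE 0.18, adjusted p = 2.46e-05, limma) depends on the 1 FPKM added before the logarithm, since it was nearly absent from SCPs. Dpt (dermatopontin, which binds decorin and collagen) was listed at 0, 0 and 0.51 FPKM in SCPs and 6.13, 5.59 and 8.04 FPKM in RSCs (2.71, SE 0.27, adjusted p = 6.00e-04, limma).

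Mfap5, a glycoprotein of elastic microfibrils (chr4:155313671-155336228), was at 0.25, 0.47 and 0.53 FPKM in SCPs and listed at 40.5, 0 and 29.5 FPKM in RSCs. RSC 2 was the exception: its reference transcript had an upper confidence bound of 0.56 FPKM, while an assembled transcript of the same locus was at 58.0 FPKM. The log2 fold change was 2.94 (SE 1.43, adjusted p = 0.144, limma) on the reference transcript, 4.65 without RSC 2, and 5.20 (SE 0.14, adjusted p = 1.59e-06, limma) with assembled transcripts, which gave 47.5, 58.0 and 47.5 FPKM in RSCs. In that fit 9 of 10 tested fibroblast genes were called higher in RSCs and 1 in SCPs, when 23.2% and 34.2% of all 14019 genes tested were.

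Gsn (gelsolin, an actin-severing protein abundant in fibroblasts and also made by myelinating glia) was the most abundant of the group, at 21.6, 25.3 and 37.8 FPKM in SCPs and 139, 174 and 131 FPKM in RSCs. It rose by a log2 fold change of 2.38 (SE 0.23, adjusted p = 4.96e-04, limma). Cldn1, the tight junction claudin of the perineurium, was at 0.57, 2.23 and 2.63 FPKM in SCPs and 12.6, 13.5 and 13.5 FPKM in RSCs (2.42, SE 0.35, adjusted p = 0.00235, limma). The claudins of both nerve barriers, Cldn5 of endothelium and Cldn1 of perineurium, were thus called higher in RSCs.

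The transcription factors of connective tissue divided. Osr2 (odd-skipped related 2) was at 2.104, 3.12 and 4.44 FPKM in SCPs and 13.5, 30.7 and 22.9 FPKM in RSCs (log2 fold change 2.44, SE 0.35, adjusted p = 0.00250, limma). Its paralog Osr1 (chr6:35314431-35321458), a factor of embryonic limb connective tissue progenitors, was at 17.9, 14.7 and 13.4 FPKM in SCPs and 0.58, 0.64 and 0.45 FPKM in RSCs. Osr1 was lower in RSCs by a log2 fold change of -3.39 (SE 0.19, adjusted p = 7.42e-05, limma). Tcf21, a factor of mesenchymal and fibroblast progenitors, was listed at 1.33, 3.73 and 0.70 FPKM in SCPs and at 0 in all 3 RSC samples. Its mean was below the filter, and without a filter its unadjusted p was 0.0101. The limb mesenchyme and cartilage list, which holds neither gene, was also higher in SCPs.

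Of 28 further genes of nerve fibroblasts, 26 were found, 23 were tested, 14 were called higher in RSCs and 4 in SCPs. Over all 13003 genes tested the shares were 18.1% and 22.4%. Of the 23 genes, 5 passed the filter only through RSCs and 2 only through SCPs. Dcn (decorin, a collagen-binding proteoglycan) rose from a mean of 15.8 to 2060 FPKM (log2 fold change 6.96, SE 0.45, adjusted p = 1.25e-04, limma). Igfbp6, an insulin-like growth factor binding protein, rose from 7.95 to 336 FPKM (5.23, SE 0.17, adjusted p = 2.14e-05), and the ferritin receptor Scara5 from 3.06 to 42.9 FPKM (3.66, SE 0.54, adjusted p = 0.00271). Lower in RSCs were Moxd1, a monooxygenase-like gene (log2 fold change -7.30, SE 0.22, adjusted p = 1.72e-05, limma), Mfap4, a microfibril-associated glycoprotein (-3.64, SE 0.32, adjusted p = 3.75e-04), and Fbln1, a matrix fibulin (-1.92, SE 0.12, adjusted p = 1.11e-04). Moxd1 was at a mean of 260 FPKM in SCPs against 0.69 in RSCs, and so passed the filter only through SCPs. Its mean in SCPs was above that of the Schwann lineage factor Sox10 (179 FPKM), and which cells made Moxd1 was not tested. Connective tissue genes were not uniformly low in SCPs: Mfap4 and Fbln1, which passed the filter in both groups, were called higher there.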

How the data were processed

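The authors made stranded mRNA libraries from 3 SCP and 3 RSC preparations and sequenced them from both ends. The submitters' processing notes name FastQC 0.11.2, TopHat2 2.1.0, Cufflinks 2.2.1 and the rn6 genome. For each sample the authors deposited Cufflinks FPKM with confidence bounds, and the read coverage of each transcript, a signal used here only for relative depth (0.88 to 1.00 of the highest in SCPs, 0.79 to 0.84 in RSCs). The tables hold no counts, so absolute depth is unknown and no counting intervals were given. Unnamed assembled transcripts held 26.1% to 31.9% of FPKM in SCPs and 18.6% to 23.4% in RSCs. Besides Cdh5 and Rgs5, Cufflinks marked reference estimates of other members as low data. These were 5 of 12 for Dpp4, 6 of 12 for Osr1, 6 of 18 for Gsn, 6 of 24 for Erg and 2 of 12 for Flt1.

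FPKM of named transcripts were summed by symbol, leaving out 77 transcripts with date-like names in each table. Log2(FPKM + 1) was fitted with limma 3.58.1 in R 4.3.3 (variance trend, no block, two-sided) over the 13003 genes that averaged 1 FPKM or more. Other settings tried were no filter on low values, a filter at 5 FPKM, a pseudocount of 0.1, scaling by quantiles or by the median of ratios, a flat prior variance in limma, the replicate number as a block, calls by adjusted p, 1 transcript per gene (the highest), leaving out each sample, and counting an unnamed transcript with whichever named gene of its Cufflinks locus it overlapped most. The last was refitted without each sample and with the block after seeing the data. Scripts were tested on simulated data. Members, lists and tests were chosen with earlier results of these data known. All 32 members were named, and of each further list the 3 genes with the largest called change in each direction, where there were as many. Positions are those of the tables on rn6, counted from 1.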

Additional observations from a re-analysis of the deposited data

How the results depend on the processing

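Of 520 refitted log2 fold changes of members, 500 kept their side of the threshold. Changes called in neither fit count among these even where the direction switched. With unnamed transcripts added, Cdh5 went from 1.80 to -0.08 and Pecam1 from -0.19 to 0.19. The 520 include the later refits of selected genes with assembled transcripts, which were compared with the fit that included those transcripts. The change of Flt1 reversed to 1.51 with unnamed transcripts added. That setting also gave 2 mural genes higher in RSCs (Rgs5 and Myh11) in place of 0, when 23.2% of all genes were called so. In RSCs 1 to 3 assembled transcripts held 100%, 50.1% and 87.6% of the Flt1 level and all of the Rgs5 level. For Myh11 they held 59.9%, 37.2% and 53.7%. Why these levels were assigned to unnamed transcripts was not tested. Leaving out 1 sample gave 0 to 1 mural genes higher in RSCs; the 1 was Abcc9, without SCP 3. With assembled transcripts included, leaving out SCP 2 gave 8 endothelial genes higher in RSCs in place of 5, and 5 of the 6 fits without a sample, as well as the replicate block, gave 1 mural gene in place of 2. At over 4-fold, 0 to 2 endothelial genes were higher in RSCs across the alternatives (0 without SCP 1, without RSC 3 or with unnamed transcripts added, 2 without SCP 2 or with median-of-ratios scaling, otherwise 1), and 4 fibroblast genes, not 7, when the highest transcript stood for its gene. Samples with the same replicate number did not deviate together (correlations 0.044, -0.005 and 0.026). With the replicate block 4275 genes were called in all against 5268 without it, and the endothelial count higher in SCPs was 0 in place of 1. Median-of-ratios scaling moved the median over all genes from -0.17 to 0.01. Of the further lists, a mean of at least 5 FPKM left 4 endothelial and 9 nerve fibroblast genes higher in RSCs (9 and 14 before), while those higher in SCPs numbered 0 to 2 endothelial and 1 to 5 mural genes across the alternatives (1 each before). Without counts, how far depth limits the low markers cannot be stated.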
